A study of Mus musculus with 8 samples.

Results

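Fibrosis and matricellular genes were followed in the hearts of mice that lack LRPPRC, a mitochondrial RNA-binding protein. The group consisted of 10 named genes, Postn, Tnc, Thbs1, Thbs4, Spp1, Fn1, Lox, Timp1, Tgfb1 and Tgfb2, out of 50599 gene records, and each name matched 1 Ensembl record. The genes are grouped by what they encode, with no threshold on a measured value. RNA came from whole hearts of 12-week-old C57BL/6N males on normal chow. There were 4 libraries labelled wildtype, from Lrpprc loxP/loxP animals without Cre, and 4 labelled Lrpprc knockout, from Lrpprc loxP/loxP, Cre+ animals, each library from 1 mouse. Both groups therefore carried the floxed allele. The deletion was restricted to heart and skeletal muscle because loss in the whole body is lethal in the embryo, and the promoter that drove Cre is not named in the sources used here. Fibroblasts, macrophages and other cells of these hearts were sequenced together with the muscle cells, so fewer cells of a type and less RNA per cell cannot be told apart in any value given here.

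Fibrosis is the build-up of extracellular matrix between the muscle cells of the heart, and fibroblasts are its main source. TGF-beta ligands are secreted in a latent complex, are released at the cell surface and signal through receptor kinases to SMAD transcription factors, which turn on matrix genes. Matricellular proteins, such as periostin, tenascin C, the thrombospondins and osteopontin, are secreted into the matrix and bind cell receptors and growth factors rather than serving as its main structural fibres. In the healthy adult heart most of them are scarce, and they are known as markers of injury and remodelling. Lysyl oxidase cross-links collagen and elastin, and TIMP proteins inhibit the metalloproteinases that degrade matrix.

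The libraries held 35218541 to 47743376 expected counts. Normalised counts below are counts divided by DESeq2's median-of-ratios size factor and the gene's relative effective length. The targeted gene, Lrpprc, had 3424 to 3946 normalised counts in the wildtype and 504 to 605 in the knockout, so all 8 libraries matched their labels. Mitochondrial rRNA took 44.01% to 46.86% of the counts in the wildtype and 65.63% to 67.84% in the knockout. Knockout replicate 3 stood apart from the other 3 knockout libraries on the second principal component (68.5 against -27.3 to -22.9). Markers of heart muscle were abundant in every library, with a summed normalised count over 7 genes of 991816 to 1105172 in the wildtype and 464014 to 608553 in the knockout.

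Of the 10 genes, 7 were higher in the knockout hearts, 0 were lower and 3 did not pass the test (DESeq2, Benjamini-Hochberg adjusted p under 0.05). The genes that rose were Spp1, Timp1, Lox, Tnc, Postn, Tgfb2 and Thbs4, by 3.89-fold to 22-fold. Fn1, Thbs1 and Tgfb1 did not pass. Among all 19959 records tested, 33.7% were called, 18.2% higher and 15.5% lower. For 6 of the 10 genes every knockout library lay above every wildtype library, which held for 16.7% of the records tested, while 33% had groups that did not overlap in either direction (16.4% with the knockout below). The median log2 fold change was 2.42 over the 10 genes and 0.01 over all records tested. Leaving out knockout replicate 3 gave 9 genes called higher, and leaving out knockout replicate 2 or replicate 4 gave 6, because Spp1 then received no p-value.

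**Figure D1:**
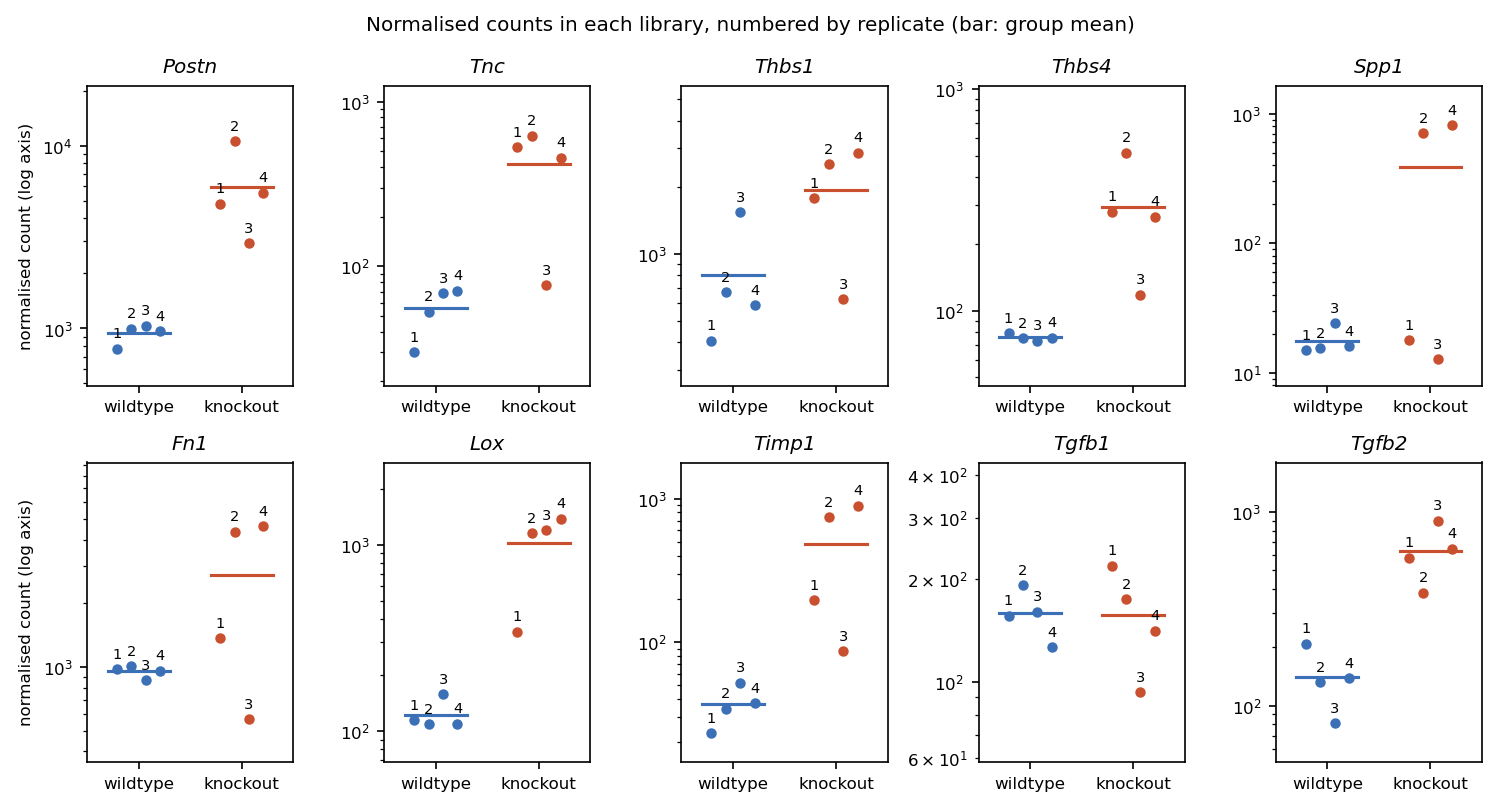
Normalised count of each gene in every library (points, numbered by replicate) for the 4 wildtype and 4 knockout hearts, on a log axis, with a bar at the group mean. Postn, Tnc, Thbs4, Lox, Timp1 and Tgfb2 show 2 groups that do not overlap, whereas in Spp1 knockout replicate 1 sits among the wildtype libraries and replicate 3 just below them.

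Among the matricellular proteins, Postn encodes periostin, which binds collagen and is made by activated fibroblasts. It lies on chromosome 3 from 54361109 to 54391037 on the plus strand (GRCm38, ENSMUSG00000027750.16). In order of replicate number, 1 to 4, its normalised counts were 776, 995, 1034 and 967 for the wildtype hearts and 4818, 10609, 2925 and 5527 for the knockout hearts. All values below keep this order. The groups did not overlap, and the lowest knockout library was still well above the highest wildtype library. The means were 943 ± 115 (SD, n = 4) and 5970 ± 3282 (SD, n = 4), a 6.33-fold rise (log2 fold change 2.66, standard error 0.406, adjusted p by DESeq2 9.45e-10). Postn was the most abundant of the 10 genes per length in both groups.

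Tnc encodes tenascin C, a large oligomeric glycoprotein that appears in developing and injured tissue (chromosome 4, 63959785 to 64047015, minus strand, ENSMUSG00000028364.15). Wildtype replicates 1 to 4 had 30, 52.9, 68.5 and 70.8 normalised counts and knockout replicates 1 to 4 had 526, 621, 76.6 and 456. Knockout replicate 3 was only just above the wildtype range, while the other 3 knockout libraries were several times higher than any wildtype library. From 55.6 ± 18.8 to 420 ± 239 (SD, n = 4 each), Tnc rose 7.55-fold (log2 fold change 2.92, standard error 0.629, adjusted p by DESeq2 2.91e-05). On the TPM scale knockout replicate 3 was at 0.26 and the wildtype at 0.12 to 0.28. TPM is not comparable between the groups, because mitochondrial rRNA takes a larger part of the total in the knockout. Without knockout replicate 3 the log2 fold change of Tnc was 3.25.

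Thbs1 and Thbs4 encode thrombospondins. Thrombospondin 1 is known to release TGF-beta from its latent complex, and thrombospondin 4 is associated with the heart under pressure load. Thbs4 (chromosome 13, 92751590 to 92794818, minus strand, ENSMUSG00000021702.7) had 79, 75, 73.2 and 75.6 normalised counts in the wildtype libraries and 279, 515, 118 and 265 in the knockout libraries. The wildtype values were nearly identical and every knockout value lay above them, with knockout replicate 3 the closest. The mean went from 75.7 ± 2.44 to 294 ± 164 (SD, n = 4 each), a 3.89-fold rise (log2 fold change 1.96, standard error 0.347, adjusted p by DESeq2 2.08e-07).

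Thbs1 (chromosome 2, 118111876 to 118127133, plus strand, ENSMUSG00000040152.8) had 405, 671, 1539 and 588 normalised counts in the wildtype and 1782, 2543, 624 and 2870 in the knockout. Knockout replicate 3 lay within the wildtype range, so the groups overlapped, and wildtype replicate 3 was far above the rest of its group. The means were 801 ± 504 and 1955 ± 997 (SD, n = 4 each), and the difference missed the threshold (log2 fold change 1.29, standard error 0.585, adjusted p by DESeq2 0.0746). Leaving out wildtype replicate 3 gave 1.82 (DESeq2, adjusted p = 0.00485), and leaving out knockout replicate 3 gave 1.58 (DESeq2, adjusted p = 0.00814), so either library alone moved Thbs1 across the threshold.

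Spp1 encodes osteopontin, which binds integrins and CD44 and is made by macrophages among other cells (chromosome 5, 104435118 to 104441050, plus strand, ENSMUSG00000029304.14). Its normalised counts were 14.9, 15.5, 24.3 and 16.1 in the wildtype and 17.9, 708, 12.7 and 818 in the knockout. The rise was carried by knockout replicates 2 and 4, and replicates 1 and 3 did not leave the wildtype range upwards. With means of 17.7 ± 4.44 and 389 ± 434 (SD, n = 4 each), the log2 fold change of 4.46 was the largest of the 10 genes and had the largest standard error, 1.21 (DESeq2, adjusted p = 0.00127). Without knockout replicate 2 the log2 fold change was 4.0, and without knockout replicate 4 it was 3.80. In both cases DESeq2's filter on single outlying counts withheld the p-value. With the replicate number as a block the log2 fold change was 2.70 and the call was lost (DESeq2, adjusted p = 0.0998).

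Fn1 encodes fibronectin, an adhesive glycoprotein on which collagen fibrils are assembled (chromosome 1, 71585520 to 71653200, minus strand, ENSMUSG00000026193.15). The wildtype libraries had 976, 1010, 868 and 960 normalised counts, and the knockout libraries had 1369, 4354, 567 and 4624. As with Spp1, replicates 2 and 4 were the 2 high knockout libraries, and replicate 3 was below all 4 wildtype libraries. The means were 954 ± 61 and 2729 ± 2062 (SD, n = 4 each), and the difference fell just short of the threshold (log2 fold change 1.52, standard error 0.638, adjusted p by DESeq2 0.0512). It passed with edgeR at 1.51 (edgeR, adjusted p = 0.0422), without knockout replicate 1 at 1.74 (DESeq2, adjusted p = 0.0347) and without knockout replicate 3 at 1.85 (DESeq2, adjusted p = 1.28e-04). With DESeq2 and a filter on low counts it passed as well, at 1.52 (DESeq2, adjusted p = 0.0431), so the call for Fn1 depended on the records tested and on single knockout libraries.

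Lox encodes lysyl oxidase, which starts the cross-linking of collagen and elastin (chromosome 18, 52516067 to 52529867, minus strand, ENSMUSG00000024529.13). It had 115, 109, 158 and 110 normalised counts in the wildtype and 342, 1159, 1199 and 1383 in the knockout. No overlap was seen between the groups, and here replicate 1 was the low one and replicate 3 was among the high ones. Lox rose 8.3-fold, from 123 ± 23.6 to 1021 ± 463 (SD, n = 4 each), which gave the smallest adjusted p of the 10 genes (log2 fold change 3.05, standard error 0.338, adjusted p by DESeq2 7.44e-18).

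Timp1 encodes an inhibitor of matrix metalloproteinases (chromosome X, 20870166 to 20874735, plus strand, ENSMUSG00000001131.11). Its normalised counts were 23.2, 34.4, 52.2 and 37.6 in the wildtype and 196, 740, 86.1 and 891 in the knockout. The groups did not overlap, although knockout replicates 2 and 4 were several times above replicates 1 and 3. Timp1 rose 13-fold, from 36.8 ± 11.9 to 478 ± 397 (SD, n = 4 each), and had a log2 fold change of 3.70 (standard error 0.742, adjusted p by DESeq2 6.02e-06). The gene lies within Syn1, a gene on the opposite strand whose own record had a mean of 0.817 normalised counts.

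The TGF-beta ligands did not move alike. Tgfb2 (chromosome 1, 186622792 to 186705989, minus strand, ENSMUSG00000039239.14) had 209, 132, 81.4 and 139 normalised counts in the wildtype and 583, 383, 903 and 648 in the knockout. Every knockout library was above every wildtype library, and replicate 3, the lowest knockout library for most of the other genes, was the highest for Tgfb2. The mean went from 140 ± 52.5 to 629 ± 214 (SD, n = 4 each), a 4.51-fold rise (log2 fold change 2.17, standard error 0.297, adjusted p by DESeq2 6.31e-12).

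Tgfb1 (chromosome 7, 25687002 to 25705077, plus strand, ENSMUSG00000002603.15) had 156, 191, 160 and 126 normalised counts in the wildtype and 218, 174, 93.1 and 141 in the knockout. The knockout libraries lay on both sides of the wildtype range. With means of 158 ± 26.8 and 156 ± 52.8 (SD, n = 4 each) the difference was close to 0 (log2 fold change -0.02, standard error 0.258, adjusted p by DESeq2 0.968), which does not show that the level was the same. Its sign changed with the scaling and with the libraries included, up to 0.42 with scaling to total counts without mitochondrial rRNA.

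**Figure D2:**
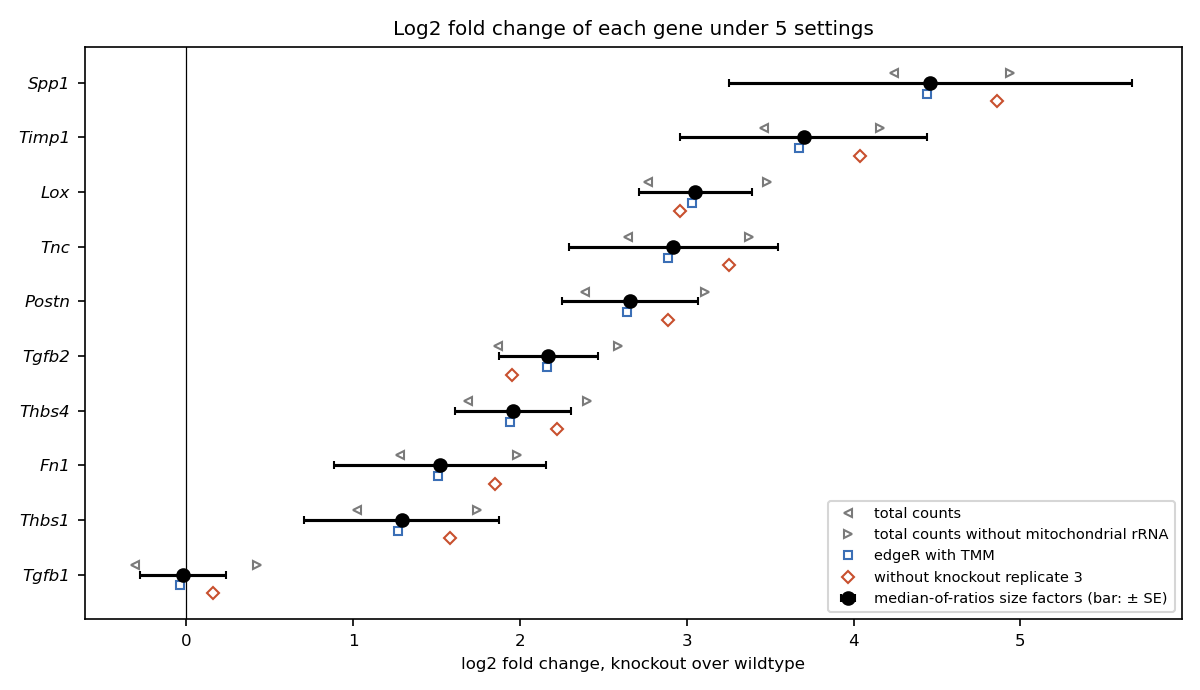
Log2 fold change, knockout over wildtype, of each gene (filled circle, bar ± standard error) beside 4 alternatives: scaling to total counts with and without mitochondrial rRNA, edgeR, and the fit without knockout replicate 3. Every marker of the 9 genes other than Tgfb1 lies to the right of 0, the markers of Tgfb1 lie on both sides, and the widest bar belongs to Spp1, at 4.46 with a standard error of 1.21.

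Knockout libraries differed from each other more than wildtype libraries did in 9 of the 10 genes, by the SD of log2(normalised count + 1). Among all 15754 records whose mean normalised count reached 10, the knockout SD was the larger in 75.7%, and the median SD was 0.17 in the wildtype and 0.27 in the knockout. Spp1 had the widest knockout spread, 3.22 against 0.31 in the wildtype, and its highest knockout library was 64.5 times its lowest. Of all those records, 99.9% had a smaller knockout SD than Spp1. Timp1 (0.47 in the wildtype and 1.6 in the knockout), Fn1 (0.09 and 1.45) and Tnc (0.56 and 1.4) followed. Thbs4 had one of the tightest wildtype groups, with an SD of 0.05 that only 5.5% of records undercut, and 0.87 in the knockout. Tgfb2 alone was no wider in the knockout, at 0.55 and 0.51. Without knockout replicate 3 the knockout SD was the larger in 7 of the 10 genes, and without knockout replicate 4 in all 10.

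**Figure D3:**
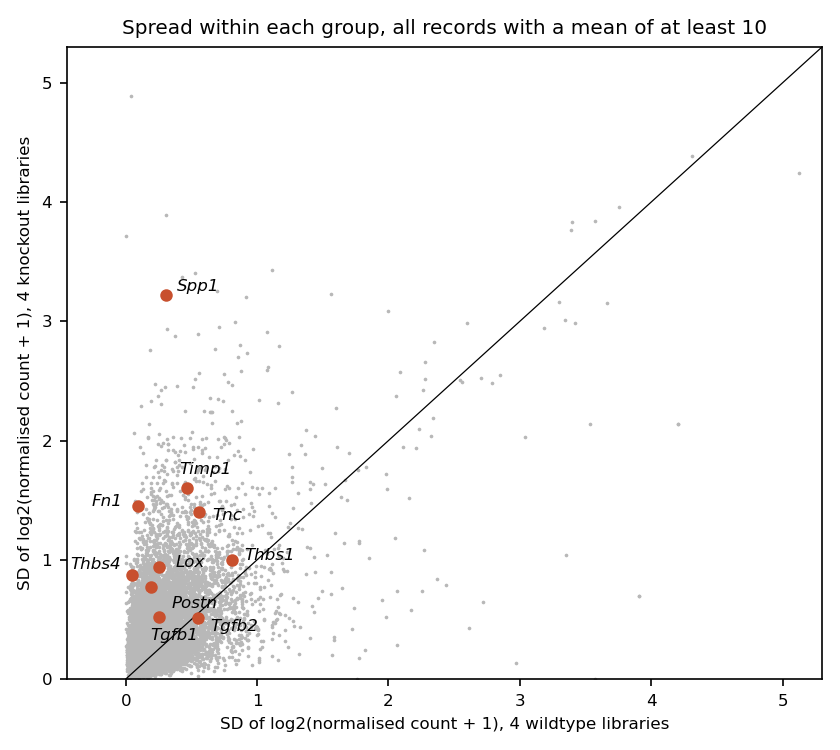
SD of log2(normalised count + 1) over the 4 knockout libraries against the same over the 4 wildtype libraries, for 15754 records with a mean of at least 10 (grey) and the 10 genes (red), with a line of equal SD. All of the 10 except Tgfb2 lie above the line, and Spp1 lies at 3.22 on the vertical axis.

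The knockout libraries did not rank the same way for every gene. Replicate 3 was the lowest knockout library for 8 of the 10 genes and for 30.4% of all records. The exceptions were Lox, lowest in replicate 1, and Tgfb2, lowest in replicate 2. Replicate 4 was the highest for 5 genes, Timp1, Spp1, Fn1, Lox and Thbs1, and replicate 2 for 3, Postn, Tnc and Thbs4, whereas these 2 libraries were the highest for 16.8% and 20.8% of all records. Relative to the wildtype mean, on the log2 scale, knockout replicate 3 was at 0.46 for Tnc, -0.36 for Thbs1, -0.48 for Spp1 and -0.75 for Fn1, yet at 3.29 for Lox and 2.69 for Tgfb2.

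**Figure D4:**
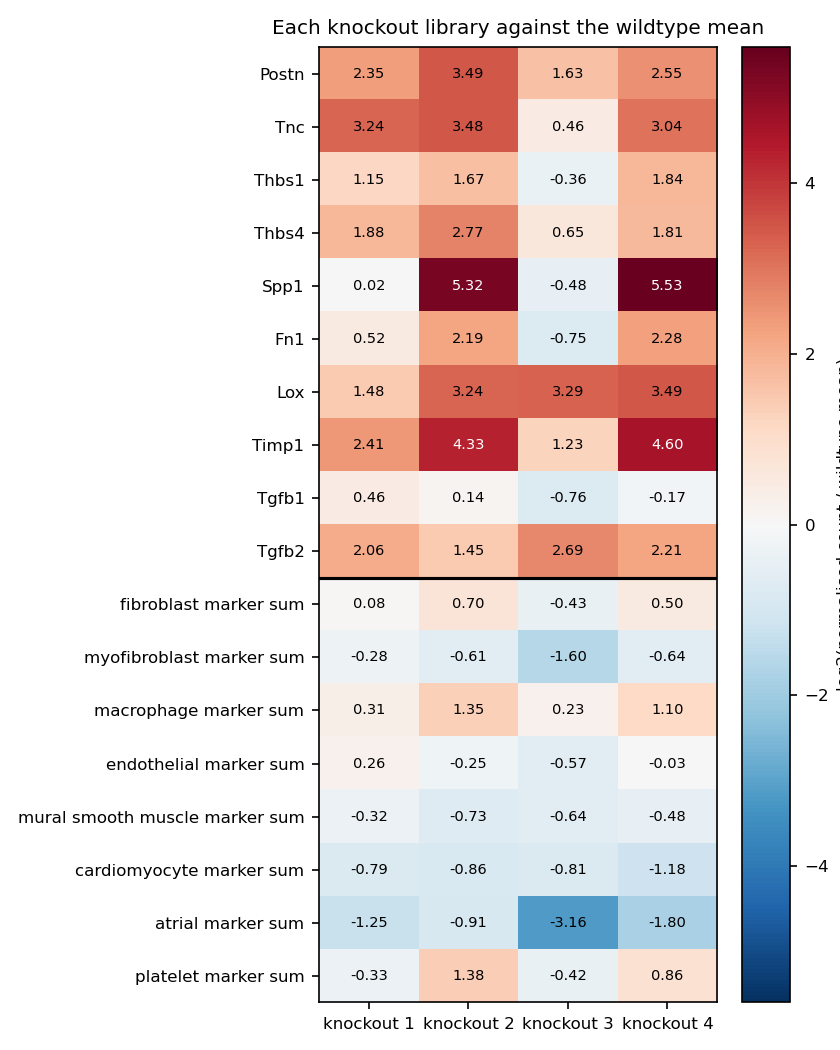
Log2 ratio of each knockout library to the wildtype mean (cell colour and number) for the 10 genes, above the line, and for summed markers of 8 cell types, below it. Replicates 2 and 4 are at 5.32 and 5.53 for Spp1 where replicates 1 and 3 are at 0.02 and -0.48. The macrophage sum is also highest in replicates 2 and 4, at 1.35 and 1.10, as are the fibroblast and platelet sums, whereas the other sums are not.

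Markers of other cell types were followed as well, and they moved in different directions. Counts of called markers are to be read against 18.2% higher and 15.5% lower among all records tested. Of 14 macrophage markers, 12 were higher in the knockout and 0 lower, with Gpnmb at 2.92, Trem2 at 2.47 and Ccr2 at 1.73 on the log2 scale. Their summed normalised count was 3855 to 4984 in the wildtype and 5376, 11072, 5108 and 9344 in knockout replicates 1 to 4, so it was high in the same 2 libraries as Spp1, Timp1 and Fn1. The count was 5 of 14 without knockout replicate 2, 6 without knockout replicate 4 and 8 without wildtype replicate 2, and 5 with scaling to total counts. The fibroblast, platelet, lymphocyte and neutrophil, and tendon and valve sums were also highest in knockout replicates 2 and 4. Of 9 fibroblast markers, 3 were higher, the collagens Col3a1, Col1a1 and Col1a2, and 1 was lower, Gsn. The groups of Col3a1 and Col1a1 overlapped. The call for Col3a1 was lost without wildtype replicate 1 or 2 or knockout replicate 2 or 4. It was also lost with the replicate number as a block and with scaling to total counts. Without knockout replicate 3 the list had 4 higher and 2 lower, and with the block 2 higher and 2 lower. The fibroblast sum was 39292 to 40860 in the wildtype and 42492, 64983, 29818 and 56748 in knockout replicates 1 to 4. Of 5 myofibroblast markers, 2 were higher, Cthrc1 at 3.50 and Meox1 at 1.21, and 1 was lower, Acta2, smooth muscle actin, at -1.16. Cthrc1 was low, with 6.23, 58.2, 6.04 and 20.4 normalised counts in the knockout, and it was at 2.47 without knockout replicate 2 and had too few counts for edgeR or the filter on low counts. Meox1 was at the threshold (DESeq2, adjusted p = 0.0499), and its call was lost whenever any single library other than knockout replicate 3 was left out. The block and scaling to total counts lost it as well, and with the block this list had 1 higher and 2 lower. The myofibroblast sum was 3251 to 4315 in the wildtype and 1293 to 3226 in the knockout. Acta2 alone had 2297 to 3116 in the wildtype and 854 to 1700 in the knockout, so this sum largely followed a gene that smooth muscle also expresses. The part of these markers in the result was not tested.

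Blood cell markers were also high in some of these libraries. Platelet markers, 0 of 5 of which were called, summed to 145 to 249 in the wildtype and to 151, 497, 143 and 346 in the knockout, and 1 was called higher without knockout replicate 1. Lymphocyte and neutrophil markers summed to 5.82 to 48.9 in the wildtype and to 52.5, 406, 78.2 and 300 in the knockout, so all knockout libraries were above the wildtype range and replicates 2 and 4 the furthest. Of these 4 markers 2 were higher, S100a8 at 3.99 and S100a9 at 3.11, and both had low wildtype counts. S100a8 was at 4.99 without wildtype replicate 3 and 3.37 without knockout replicate 2. S100a9, whose groups overlapped, was at 3.97 without wildtype replicate 3 and lost its call without knockout replicate 2. Erythroid markers summed to 15265 to 19689 in the wildtype and to 10923, 33325, 41070 and 15950 in the knockout, with 0 of 4 called, and 3 were higher once knockout replicate 1 was left out. Of 4 atrial markers 2 were lower, Myl7 at -3.54 and Sln at -2.84, and the sum was 9980 to 12038 in the wildtype and 4754, 6012, 1268 and 3233 in the knockout. Of 5 endothelial markers 0 were called, but 2 were lower without knockout replicate 1 and 2 were higher without replicate 3. The mural markers Abcc9 at -1.26 and Myh11 at -1.16 were lower, 2 of 5, as were 6 of 7 heart muscle markers, led by Pln at -1.46, Ryr2 at -1.4 and Actc1 at -1.15. The epicardial markers Upk1b and Msln, 2 of 5, were higher, both at 2.66. The groups of Msln overlapped, and it was at 1.89 without knockout replicate 2, while Upk1b had too few counts for edgeR or the filter on low counts. Of 5 tendon and valve markers tested, Comp at 1.93 and Scx at 1.04 were higher and Chad at -2.22 was lower, at -2.92 without knockout replicate 2. With scaling to total counts, 2 endothelial and 3 mural markers were lower, the fibroblast list had 2 higher and 2 lower, and the myofibroblast list had 1 higher and 2 lower. With mitochondrial rRNA left out of the totals, 3 endothelial, 3 mural, 2 erythroid and 1 platelet markers were higher. No marker in these lists was at 0 in all 8 libraries, and their part in the result was not tested either.

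Levels were compared between genes per transcript length, as TPM, within a group only, because mitochondrial rRNA takes a larger part of the total in the knockout. In the wildtype the order of mean TPM (± SD, n = 4) was Postn at 9.53 ± 1.11, Fn1 at 5.34 ± 0.367, Thbs1 at 3.97 ± 2.52, Tgfb1 at 2.45 ± 0.441, Timp1 at 1.47 ± 0.474, Tgfb2 at 1.12 ± 0.433, Lox at 0.892 ± 0.175, Thbs4 at 0.71 ± 0.0283, Spp1 at 0.392 ± 0.0988 and Tnc at 0.225 ± 0.0755. Neighbours in that order whose libraries did not overlap were Postn and Fn1, Lox and Thbs4, Thbs4 and Spp1, and Spp1 and Tnc. In the knockout the order was Postn at 56 ± 32.6, Timp1 at 18.2 ± 15.7, Fn1 at 14.5 ± 11.5, Thbs1 at 9.08 ± 5.05, Spp1 at 8.32 ± 9.36, Lox at 6.81 ± 3.29, Tgfb2 at 4.55 ± 1.38, Thbs4 at 2.56 ± 1.49, Tgfb1 at 2.2 ± 0.742 and Tnc at 1.6 ± 0.928, and all neighbours overlapped. Tgfb1 therefore stood above Tgfb2 in the mean of the wildtype group and below it in that of the knockout group.

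Shares within a gene family do not depend on the scaling of the library. Timp1 made up 2.69%, 3.8%, 5.27% and 4.08% of the summed TPM of Timp1 to Timp4 in the wildtype and 20.3%, 34.7%, 5.64% and 41.6% in the knockout. The groups did not overlap, although knockout replicate 3 was just above the wildtype range. The mean share was 3.96% ± 1.06 and 25.6% ± 16 (SD, n = 4 each, exact permutation test, two-sided, p = 0.0286, adjusted over 4 shares 0.0381). This p of 0.0286 is the smallest that 70 assignments allow. The difference in share was 21.6 points by TPM, 28.2 without knockout replicate 3, 16.2 without replicate 4 and 5.73 when normalised counts, which are not scaled for length between genes, took the place of TPM. Timp3, the most abundant member in the wildtype, also rose, by 0.67 ± 0.185 (SE) on the log2 scale (DESeq2, adjusted p = 0.00155), and Timp2 and Timp4 did not pass the test.

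Tgfb2 made up 24.5%, 13.9%, 10.7% and 19.3% of the TPM of the 3 TGF-beta ligands in the wildtype and 38%, 29.3%, 67.8% and 45.2% in the knockout. The knockout range began above the wildtype range, and replicate 3 had the largest share. The means were 17.1% ± 6.08 and 45.1% ± 16.5 (SD, n = 4 each, exact permutation test, adjusted p = 0.0381). The difference of 28 points was 20.4 without knockout replicate 3. Tgfb3, the remaining ligand, did not pass the test (log2 fold change 0.34, standard error 0.241, adjusted p by DESeq2 0.288).

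Lox made up 10.4%, 9.74%, 13.1% and 8.79% of the TPM of the 5 lysyl oxidase genes in the wildtype and 15.4%, 28.4%, 49.5% and 36% in the knockout. Again the groups did not overlap, with means of 10.5% ± 1.87 and 32.3% ± 14.3 (SD, n = 4 each, exact permutation test, adjusted p = 0.0381). The difference of 21.8 points was 16.1 without knockout replicate 3. The share of Thbs4 among the 5 thrombospondin genes, Comp included, did overlap, at 8.56%, 5.9%, 4.4% and 6.46% in the wildtype and 14.1%, 13.8%, 6% and 6.22% in the knockout. Its means of 6.33% ± 1.72 and 10% ± 4.52 did not differ beyond the spread between libraries (SD, n = 4 each, exact permutation test, adjusted p = 0.257).

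**Figure D5:**
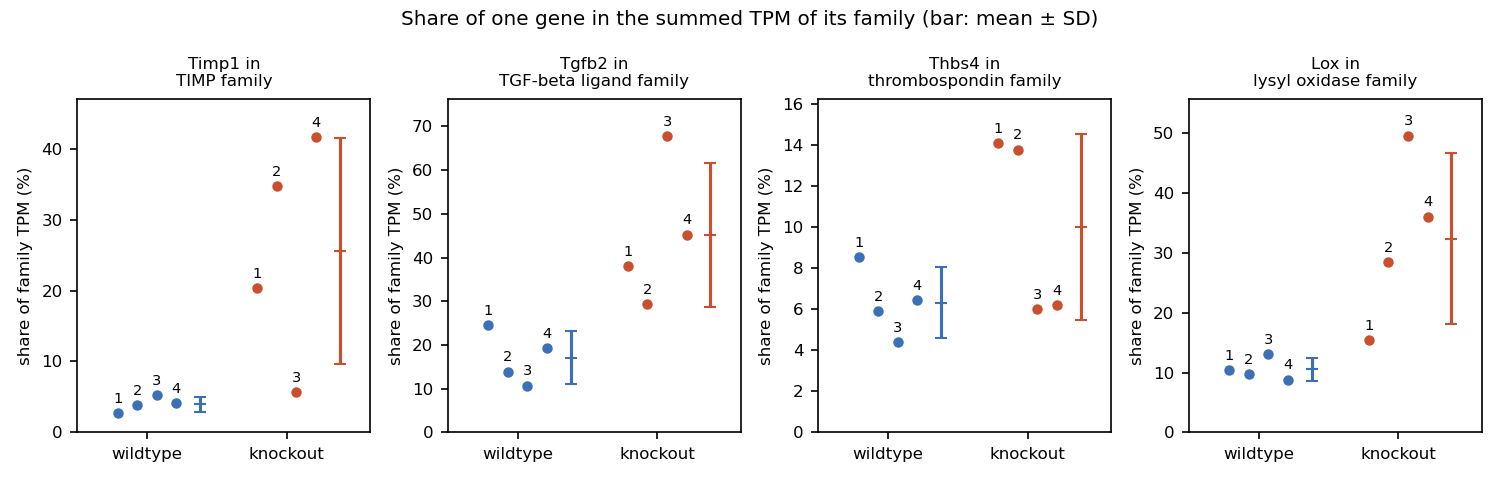
Share of Timp1, Tgfb2, Thbs4 and Lox in the summed TPM of their families, in percent, for each library (points, numbered by replicate) with the group mean ± SD (bars). The 4 knockout libraries lie above all wildtype libraries for Timp1, Tgfb2 and Lox, and knockout replicates 3 and 4 lie within the wildtype range for Thbs4.

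Further genes of the TGF-beta pathway, from ligand processing to SMAD targets, were followed in a list of 26, all tested. Of these, 8 were higher and 3 lower, with a median log2 fold change of 0.16 against 0.01 over all records tested. The share called in this list and in those that follow is to be read against 18.2% higher and 15.5% lower among all records tested. The largest changes were in Ltbp2 at 2.18 ± 0.524 (SE), a relative of the proteins that hold TGF-beta latent, Tgif1 at 1.57 ± 0.199 (SE), a repressor of SMAD activity, and Inhba at 1.57 ± 0.441 (SE), which encodes an activin subunit. Smurf1, a ubiquitin ligase for SMADs and receptors, was at 1.0 ± 0.107 (SE) and Pmepa1, a target and inhibitor of the pathway, at 0.95 ± 0.117 (SE), and none of these 5 had overlapping groups. The inhibitory SMAD genes Smad6 and Smad7 rose by 0.76 and 0.56, while Tgfbr3, the coreceptor betaglycan, was lower at -0.81 and Ltbp1 at -0.61. With scaling to total counts 6 were higher and 9 lower, and without mitochondrial rRNA in the totals 16 were higher and 1 lower.

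Relatives of the matricellular genes moved in both directions. Of 20 tested out of 22 in the list, 8 were higher and 5 lower, with a median of 0.48. The CCN genes, which encode secreted signalling proteins of the matrix, led the list. Ccn2, a known target of TGF-beta, had 814, 904, 985 and 946 normalised counts in the wildtype and 4431, 5004, 4753 and 6524 in the knockout. All knockout libraries were close to each other and far above the wildtype, so that Ccn2 rose by 2.5 ± 0.141 (SE) on the log2 scale (DESeq2, adjusted p = 6.88e-68). Ccn5 rose by 3.50 ± 0.274 (SE) and Ccn4 by 2.68 ± 0.223 (SE), whereas Ccn3 was lower at -1.25 ± 0.354 (SE). Comp, a thrombospondin of cartilage and tendon, was at 1.93 ± 0.613 (SE). It had 115, 238, 195 and 184 normalised counts in the wildtype and 285, 941, 240 and 1332 in the knockout, so replicates 2 and 4 carried most of the rise. Fbln2, a fibulin, was at 1.36 ± 0.172 (SE). With scaling to total counts without mitochondrial rRNA 13 were higher and 0 lower.

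Genes of matrix degradation numbered 27 tested out of 30, of which 13 were higher and 2 lower, with a median of 0.40. The metalloproteinase genes Mmp9 at 2.36 ± 0.663 (SE) and Mmp3 at 2.13 ± 0.635 (SE) were higher with overlapping groups, and Mmp15, a membrane-bound metalloproteinase, was lower at -1.98 ± 0.298 (SE). Adam12, whose groups also overlapped, was at 1.39 ± 0.491 (SE) and ran from 1.02 to 2.05 over the alternative fits. The call for Mmp9 was lost without knockout replicate 4, at 1.63, and without the length offset. The call for Adam12 was lost without wildtype replicate 1, 2 or 4 or knockout replicate 1 or 4. It was also lost with the replicate number as a block and with scaling to total counts. With scaling to total counts 6 genes of the list were higher, and without mitochondrial rRNA in the totals 18.

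Among 18 genes of collagen cross-linking and maturation, 5 were higher and 0 lower, with a median of 0.21, where 33.7% of all records tested were called. Loxl4 rose by 2.91 ± 0.276 (SE) and Loxl3 by 1.95 ± 0.367 (SE), both relatives of Lox, and Tgm2, a transglutaminase, by 1.52 ± 0.137 (SE). Adamts2, which trims procollagen, rose by 1.2 ± 0.228 (SE). Loxl1 rose by 0.61 ± 0.181 (SE) but did not pass with scaling to total counts. Without knockout replicate 3, 8 of the 18 were higher. With scaling to total counts 4 were higher and 2 lower, and without mitochondrial rRNA in the totals 15 were higher and 0 lower.

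Receptors that bind these proteins were 18 in number, with 8 higher, 2 lower and a median of 0.35. Cd44, a receptor for osteopontin and hyaluronan, rose by 1.24 ± 0.233 (SE), Itgb5, an integrin chain that binds vitronectin, by 0.93 ± 0.125 (SE), and Cd63, a tetraspanin known as a TIMP-1 partner, by 1.75 ± 0.113 (SE). Itgb6, the chain of the integrin that activates latent TGF-beta on epithelia, was lower, with 1243, 1047, 710 and 828 normalised counts in the wildtype and 294, 46, 15.5 and 39.2 in the knockout. Its 4 knockout libraries were all below the wildtype, and replicate 1 was the highest of them (log2 fold change -3.28, standard error 0.866, adjusted p by DESeq2 8.75e-04). Without knockout replicate 1 the log2 fold change was -4.78. Itga8, an integrin chain of mesenchymal cells, was at -1.44 ± 0.499 (SE), and its call was lost without wildtype replicate 2 or 3. With scaling to total counts 4 of the receptors were higher and 3 lower, and without mitochondrial rRNA in the totals 12 were higher and 1 lower.

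The records most like each gene were found by the root mean square difference of log2(normalised count + 1), centred on the gene's own mean, over the 8 libraries. For Postn they were Adamtsl2 (0.23), Itgbl1 (0.27) and Mfap5 (0.29). Fn1 was nearest to the imprinted fetal genes Mest (0.17) and H19 (0.27) and to Sfrp1 (0.33). Mest had a log2 fold change of 1.4 and H19 of 1.5, neither past the test (DESeq2, adjusted p = 0.0755 and 0.109).

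Timp1 was nearest to Gdf6 (0.62), Col8a1 (0.66) and Sfrp2 (0.68), and Spp1 to Timp1 (1.10), Sfrp2 (1.22) and Nrg1 (1.31), so that even the closest record to Spp1 was far from it. Tnc was nearest to Col8a1 (0.38), Postn (0.60) and Tmem45a (0.61). Lox was nearest to Efhd2 (0.29), Angptl7 (0.30) and Loxl4 (0.39), and Tgfb2 to Nrip2 (0.25), Erc2 (0.30) and Dhx37 (0.32).

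Thbs1 was nearest to Msr1 (0.38), Hist1h2ap (0.38) and Ms4a7 (0.40), of which Msr1 and Ms4a7 are expressed by macrophages. Thbs4 was nearest to Tmem119 (0.26) and to the collagen genes Col16a1 (0.27) and Col5a2 (0.27). Tgfb1 was nearest to St6galnac4 (0.13), Dsel (0.13) and Ruvbl2 (0.14).

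Promoter sequences are shown for Postn, Timp1, Spp1 and Tgfb2, which differ in how they varied among the knockout libraries. RefSeq windows (GRCm38.p6) were at hand for 7 of the 10 genes and reach from 250 bases before to 50 bases after a transcript start, and where a gene had several, the one nearest to its GENCODE start was used. Searched on both strands were TATAAA, the TATA box, CCAAT, the box bound by NF-Y, TGANTCA, an AP-1 site, and TGATGNAA, an ATF4 composite site. Below are the 250 bases before the start, on the strand of the gene, with matches in capitals (ATTGG is CCAAT on the other strand).
Postn, chr3:54360857-54361106, plus strand: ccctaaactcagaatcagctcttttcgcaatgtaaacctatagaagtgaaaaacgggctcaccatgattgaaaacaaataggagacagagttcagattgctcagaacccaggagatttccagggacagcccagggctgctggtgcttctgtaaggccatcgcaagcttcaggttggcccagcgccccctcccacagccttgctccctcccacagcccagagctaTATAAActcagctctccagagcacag
Timp1, chrX:20869916-20870165, plus strand: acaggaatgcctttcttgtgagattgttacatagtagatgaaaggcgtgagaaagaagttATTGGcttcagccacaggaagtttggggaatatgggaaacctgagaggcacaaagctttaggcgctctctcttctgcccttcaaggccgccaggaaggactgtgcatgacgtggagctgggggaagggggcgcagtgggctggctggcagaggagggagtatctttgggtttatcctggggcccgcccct
Spp1, chr5:104434861-104435110, plus strand: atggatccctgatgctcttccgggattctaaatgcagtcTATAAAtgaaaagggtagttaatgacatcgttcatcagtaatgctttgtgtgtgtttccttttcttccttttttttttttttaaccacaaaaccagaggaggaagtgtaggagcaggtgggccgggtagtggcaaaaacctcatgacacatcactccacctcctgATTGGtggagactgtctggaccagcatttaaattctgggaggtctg
Tgfb2, chr1:186705990-186706239, minus strand: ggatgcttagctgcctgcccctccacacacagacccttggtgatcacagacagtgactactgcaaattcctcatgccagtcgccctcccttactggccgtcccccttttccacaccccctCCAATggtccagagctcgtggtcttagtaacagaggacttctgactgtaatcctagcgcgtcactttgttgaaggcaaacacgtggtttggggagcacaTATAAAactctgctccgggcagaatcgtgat

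A TATAAA match lay 26 bases upstream of the start in Postn and 31 bases upstream in Tgfb2. In Spp1 it lay 211 bases upstream and in Tnc 126 bases upstream. TATAAA was thus found in 4 of the 7 genes with a window and in 13.6% of all 32851 windows. CCAAT was found in 3 of the 7, Timp1, Spp1 and Tgfb2, and in 37.4% of all windows. TGANTCA was found in 0 of the 7 and 7.81% of all windows, and TGATGNAA in 0 of the 7 and 3.97% of all windows. Tgfb1, the member at a log2 fold change of -0.02, and Thbs4 held 0 matches in their windows, which were also the richest in G and C of the 7, at 77% and 72%. A match is a string of letters and was not tested as a binding site.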

How the data were processed

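Total RNA from 8 hearts was sequenced in paired-end libraries after depletion of cytoplasmic rRNA. Reads were aligned by the authors with Bowtie2 to GENCODE M13 transcripts (mm10) and to mitochondrial sequences extended by 50 adenines, and the deposited expected counts were estimated strand-specifically by RSEM 1.2.31. RSEM divides reads that match several genes. The deposited TPM values, scaled to a common total by the authors, were used for shares and levels, and the deposited effective lengths are other values in bases. The authors' table of fold changes, p-values and mean counts, and 8 columns of normalised counts whose names match no sample label, were not used.

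Expected counts were rounded and fitted with DESeq2 1.42.0 (R 4.3.3) on genotype, with median-of-ratios size factors, effective lengths as offset and Benjamini-Hochberg adjustment over all records tested, at a threshold of 0.05. Shares were compared by two-sided exact permutation tests over 70 assignments. A pseudocount of 1 was added before logarithms for spread and likeness. Of 50563 Ensembl records, 50339 found a symbol and GRCm38 coordinates in GENCODE M21.

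Samples were grouped by their titles. The members, lists and tests were chosen with earlier results of these data known. From each of 5 pathway lists up to 5 genes were named, those with the largest absolute change among called genes whose mean normalised count reached 20. One gene that this rule names is not reported here. From each of 12 marker lists up to 3 were named by the same order, and for each member the 3 nearest records with a mean of at least 50. Smad6, Smad7, Tgfbr3, Ltbp1, Ccn3, Timp2, Timp3, Timp4, Tgfb3 and Gsn were named after their values were seen. The alternatives tried were edgeR 4.0.16 (TMM), a fit without the length offset, a filter that asked for 10 counts in each of 4 libraries, nuclear size factors, scaling to total counts with and without mitochondrial rRNA, no filter on outlying counts, a replicate block, other denominators for the shares, and leaving out each library.

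Depth was 35218541 to 47743376 counts. Within groups the chi-square per degree of freedom between libraries was 4.4 to 48.4, above sampling noise, so each library counted as 1 replicate. The p-values set the difference between groups against the spread between libraries. With 1 library per mouse, animal and library preparation cannot be told apart in that spread. The fits were tested on simulated data.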

Additional observations from a re-analysis of the deposited data

Results flagged for a closer look

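In 7 of 78 groups of 4 libraries 1 library lay far from the other 3 by Dixon's criterion, where chance gives about 3.9. Of these groups 6 were wildtype. Spp1 had 24.3 normalised counts in wildtype replicate 3 against 14.9 to 16.1 in the others, and Lox had 158 there against 109 to 115. Cd63 at 375 against 316 to 322, Mmp3 at 148 against 65.8 to 74.2 and Fbln2 at 2184 against 1955 to 1991 were also highest in wildtype replicate 3. Loxl3 had 139 in wildtype replicate 4 against 93.7 to 98, and Itgb6 had 294 in knockout replicate 1 against 15.5 to 46. Each gene kept its call and direction without that library.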

How the results depend on the processing

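Over 16 alternative fits, 6 to 9 of the 10 genes were called higher and 0 lower, against 7 in the fit reported. Tgfb1 changed sign, to 0.42 with scaling to total counts without mitochondrial rRNA and within -0.22 to 0.16 when single libraries were left out, and no alternative called it. Fn1 also passed without the length offset (1.88), with the filter on low counts (1.52) and with total counts without mitochondrial rRNA (1.98), and Thbs1 with the last of these (1.74). Scaling to total counts moved the median log2 fold change of 15754 records from 0.019 to -0.277, and without mitochondrial rRNA to 0.444, so that 24.6% and 87.8% of the calls were higher against 53.9%. Across lists these 2 scalings gave 9 and 1 lower TGF-beta genes against 3, 0 lower matricellular relatives (the second) against 5, 1 lower degradation gene (the second) against 2, 2 lower (the first) and 15 higher (the second) cross-linking genes against 0 and 5, and 1 lower receptor (the second) against 2. Lower TGF-beta genes were 5 with edgeR and without knockout replicate 4, lower degradation genes 1 with the block and without any single library except knockout replicate 3, lower cross-linking genes 1 without knockout replicate 1, and lower receptors 1 without wildtype replicate 2 or 3. Replicate numbers did not pair the libraries, since deviations of same-numbered libraries correlated between -0.074 and 0.072 and 2 of 8 correlated best with their own number. With a replicate block 6 genes were called higher, because Spp1, at 2.70, lost its call, and 5496 records were called against 6728. For the shares a block can give no p below 0.125. The share differences kept their direction under all alternatives, and the Timp1 difference was 5.73 points by normalised counts against 21.6 by TPM. The widest knockout spreads rest on 4 animals, and Spp1 on 11 to 28 counts in 6 of the 8 libraries.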
